A study of Mus musculus with 11 samples.

Results

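A set of 40 genes of DNA replication and the S phase of the cell cycle was followed in mouse liver after acetaminophen (APAP) overdose, gene by gene and as a mean. Membership was set by a list of gene symbols and by no measured value, and all 40 symbols were found among the 31053 genes of the count tables. All 40 also passed the filter on low counts and entered every test. The list held 10 genes of origin licensing and the replicative helicase, 7 of polymerases, clamp and clamp loaders, 3 of nucleotide supply, 8 of fork stability and DNA repair, 11 of chromatin, histone and centromere function, and 1 cell cycle transcription factor.

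The spatial assay placed frozen liver sections on slides whose spots carry barcoded primers, so that each spot, a small region holding several cells, gives a count of unique molecular identifiers (UMIs) per gene. The series had 11 sections, each 1 library: 3 uninjured (0 h, numbered 2, 3 and 4), 4 from 48 h after APAP (lettered A to D), and 4 more split evenly between 24 h and 36 h, lettered A and B within each time. The methods describe young adult C57BL/6JCrl mice, male unless stated otherwise, fasted before an intraperitoneal injection of APAP in phosphate-buffered saline, and state for this assay that each time was studied in 1 mouse. The test values of the time comparisons below therefore measure the spread between sections, and the effects of time and of the individual mouse cannot be told apart.

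S phase starts from origins that were licensed in G1 by loading of the MCM helicase. E2F transcription factors, released when cyclin-dependent kinases inactivate the retinoblastoma protein, switch on most of these genes, and mitotic genes follow later in the cycle. Adult hepatocytes rest outside the cycle and re-enter it after injury, while macrophages, endothelial cells and fibroblast-like cells of the liver can divide as well.

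Sections held 1490 to 3466 spots and 31292663 to 67045372 UMIs after spots with fewer than 800 genes or more than 20% mitochondrial UMIs were removed, with a median of 15169 to 29950 UMIs per spot. The hepatocyte markers (7 genes) summed to 119150 to 124620 CPM (counts per 1000000) at 0 h and to 85325 to 113940 CPM afterwards, and no marker of any list was at 0 in any section. Sections were summed over spots and scaled by the trimmed mean of M values (TMM), and all CPM below carry that scaling. In such sums, fewer cells of a type and less RNA per cell cannot be told apart.

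RefSeq promoters (build GRCm38.p6, 250 bases before to 50 after the start) were matched for 31 of the 40 genes. They were searched on both strands for the E2F-type octamers TTTCCCGC, TTTCGCGC, TTTGCCGC and TTTGGCGC. An octamer was present in 14 of the 31 (45.2%), against 2.60% of all 27025 promoters and 4.37% of the 11292 promoters of genes tested here. The windows below, each 30 bases read 5′ to 3′ in the direction of the gene, show helicase subunits, their loader Cdc6, and genes with large (Clspn, Uhrf1) and small (Ubr7) changes. Capitals mark the octamer, and site positions are counted from the annotated start.
Mcm3, chr1:20820275-20820304, minus strand, site from base 19: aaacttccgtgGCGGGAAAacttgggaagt
Mcm5, chr8:75109345-75109374, plus strand, site from base -153: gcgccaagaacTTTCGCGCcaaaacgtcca
Mcm6, chr1:128359734-128359763, minus strand, site from base -47: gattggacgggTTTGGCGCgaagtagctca
Mcm7, chr5:138172030-138172059, minus strand, site from base -165: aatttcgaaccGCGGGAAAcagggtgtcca
Cdc6, chr11:98908002-98908031, plus strand, site from base -138: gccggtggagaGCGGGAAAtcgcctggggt
Clspn, chr4:126556990-126557019, plus strand, site from base 21: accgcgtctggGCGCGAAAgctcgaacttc
Uhrf1, chr17:56304117-56304146, plus strand, site from base -185: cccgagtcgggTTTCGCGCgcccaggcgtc
Ubr7, chr12:102757968-102757997, plus strand, site from base 4: cggcggccactTTTCCCGCctcctcctggg
Sites in Mcm3, Mcm5 and Mcm7 occurred at 2 positions each and in Mcm6 at 3. Mcm4, Gins2, Rfc2, Gmnn, Atad2, Exo1, Tipin, Dscc1 and Usp1 had no entry in the table. A match is a description of letters in this window and not evidence of a bound site.

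The S-phase genes rose step by step over the time course. Against 0 h, 14 of the 40 were higher and 1 was lower at 24 h, 27 were higher and none lower at 36 h, and 37 were higher and none lower at 48 h (edgeR quasi-likelihood test, two-sided, adjusted p under 0.05 over 14821 genes). Of all genes tested, 23.1% were higher and 18.6% lower at 24 h, 16.8% were higher at 36 h and 23.3% were higher at 48 h. The median log2 fold change of the 40 was 0.50 at 24 h, 1.15 at 36 h and 1.99 at 48 h, where the median of all genes was 0.05, 0.05 and 0.01.

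The mean over the 40 genes was 4.88, 5.02 and 5.11 CPM at 0 h, 7.21 and 6.38 at 24 h, 8.17 and 8.99 at 36 h, and 10.9, 15.4, 14.8 and 15.96 at 48 h. Every injured section lay above every uninjured section, and the groups at 24, 36 and 48 h did not overlap. Among the 48 h sections, A was the lowest for 37 of the 40 genes. The gene means at 48 h were the highest of the 4 time points for 39 genes, the exception being Ung.

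**Figure D1:**
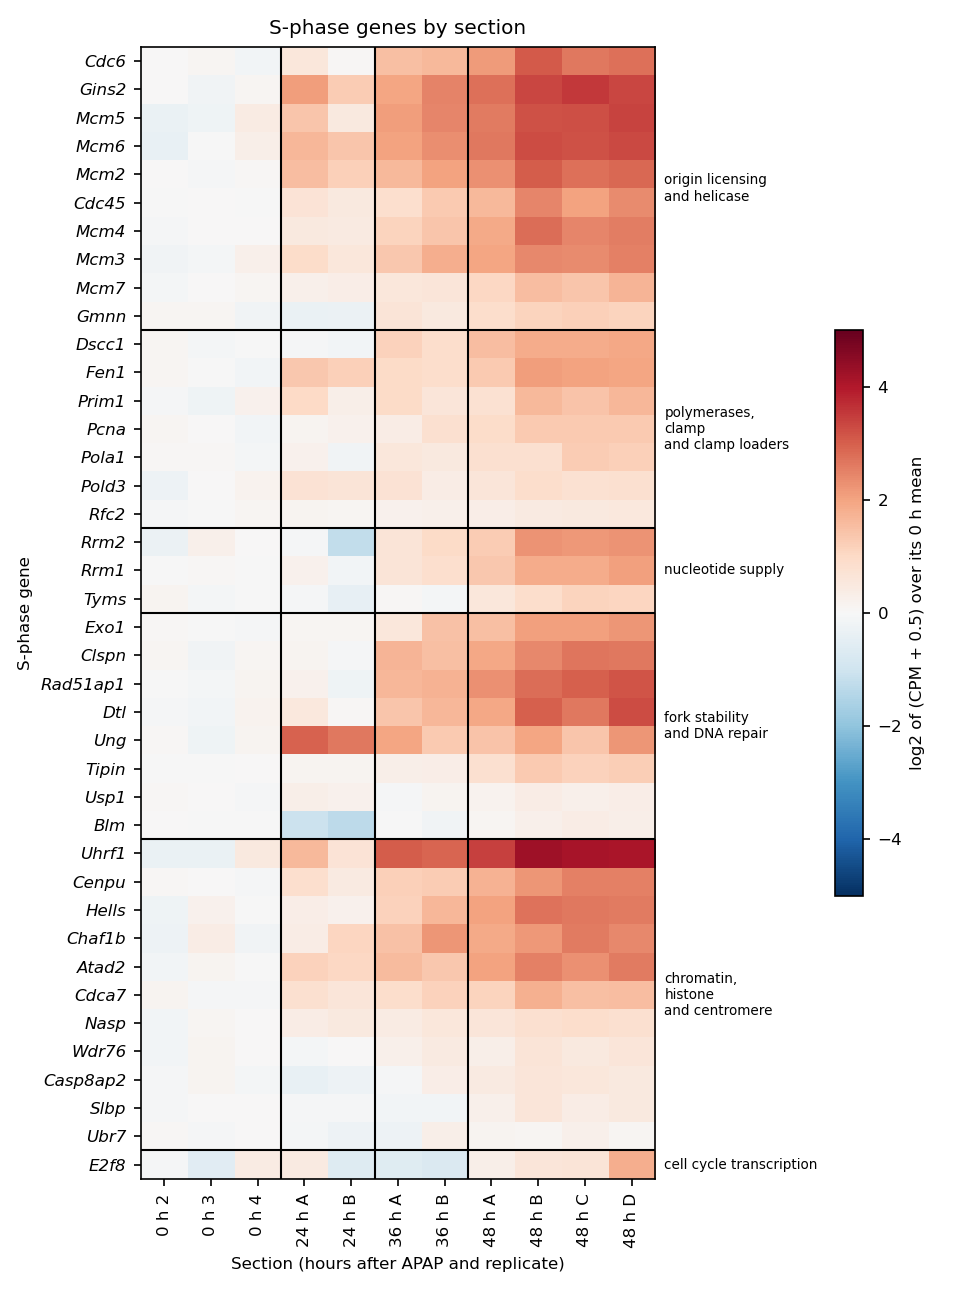
Levels of the 40 S-phase genes in the 11 sections, as log2 of CPM plus 0.5 over the gene's own 0 h mean, with genes grouped by role in rows and sections in columns. Most licensing and helicase genes turned red from 24 h on, while Gmnn lay below its 0 h mean at 24 h. Ung was highest at 24 h, Blm was lowest at 24 h, and section 48 h A was paler than the other 48 h sections.

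Licensing and helicase genes were the role with the highest share of calls at 24 h. Of the 10, 6 were higher at 24 h and all 10 were higher at 36 h and 48 h, with a median log2 fold change of 2.96 at 48 h. Mcm2 to Mcm7 encode the subunits of the helicase ring, and each had its own course.

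Mcm2 measured 2.33, 2.19 and 2.43 CPM at 0 h, 7.76 and 5.97 at 24 h, 8.23 and 10.8 at 36 h, and 13.2, 22.4, 18.6 and 20.2 at 48 h. Its 24 h sections already lay above all 0 h sections (log2 fold change 1.57 ± 0.22 SE, adjusted p = 4.05e-04), and at 48 h it was 8.03-fold higher. Mcm6 measured 2.90, 3.75 and 4.89 CPM at 0 h, 13.3 and 10.98 at 24 h, 17.3 and 21.1 at 36 h, and 26.7, 41.2, 38.8 and 42.5 at 48 h. It rose by 1.67 ± 0.24 at 24 h (adjusted p = 4.19e-04) and by 3.28 ± 0.22 at 48 h, and no groups overlapped.

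Mcm3 measured 3.28, 3.40 and 4.49 CPM at 0 h, 7.55 and 5.81 at 24 h, 10.2 and 14.3 at 36 h, and 15.9, 21.6, 20.99 and 23.4 at 48 h. Mcm5 measured 2.20, 2.47 and 4.04 CPM at 0 h, 8.39 and 4.21 at 24 h, 13.96 and 18.2 at 36 h, and 19.9, 30.4, 31.2 and 34.7 at 48 h, with section 24 h B close to the highest 0 h section. Both were called at 24 h (adjusted p = 0.00934 and 0.0228) and reached 5.52-fold and 10.1-fold at 48 h. The 24 h call of Mcm3 was lost without section A of 24 h (adjusted p = 0.0994), and that of Mcm5 was lost without section 2 or 3 of 0 h, or without section A of 24 h (adjusted p from 0.0801 up to 0.314).

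Mcm4 and Mcm7 were first called at 36 h. Mcm4 measured 2.77, 2.91 and 2.97 CPM at 0 h, 4.24 and 4.12 at 24 h, 6.72 and 8.28 at 36 h, and 11.97, 22.8, 17.9 and 19.5 at 48 h, and its log2 fold change of 0.54 ± 0.23 at 24 h did not pass (adjusted p = 0.0876). Mcm7 measured 11.4, 12.5 and 13.3 CPM at 0 h, 15.1 and 15.9 at 24 h, 18.9 and 19.1 at 36 h, and 26.2, 36.98, 33.4 and 41.97 at 48 h. At 2.79-fold, its 48 h change was the smallest among the helicase subunits. Its 24 h value of 0.32 ± 0.17 did not pass either (adjusted p = 0.148), although the sections of both genes did not overlap between 0 h and 24 h. The 36 h call of Mcm7 was lost without section 2 or 3 of 0 h, or without section B of 36 h (adjusted p from 0.0585 up to 0.0757).

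Cdc45 and Gins2 encode partners that bind the ring and activate it. Gins2 measured 0.704, 0.552 and 0.763 CPM at 0 h, 4.56 and 2.33 at 24 h, 4.08 and 6.11 at 36 h, and 7.47, 11.2, 13.2 and 11.3 at 48 h, a 5.21-fold rise at 24 h (adjusted p = 4.26e-04) and a 16.2-fold rise at 48 h. Cdc45 measured 0.528, 0.552 and 0.508 CPM at 0 h, 1.16 and 0.957 at 24 h, 1.33 and 2.06 at 36 h, and 2.69, 5.09, 3.62 and 4.75 at 48 h, and was called at 24 h with an adjusted p of 0.0307, a call lost without any section of 0 h, or without either section of 24 h (adjusted p from 0.0636 up to 0.173). In both genes the 24 h sections lay above all 0 h sections.

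Cdc6, which loads the helicase onto origins, measured 0.242, 0.276 and 0.170 CPM at 0 h, 0.581 and 0.255 at 24 h, 1.56 and 1.74 at 36 h, and 2.71, 5.58, 4.03 and 4.39 at 48 h. It was called from 36 h on (log2 fold change 2.81 ± 0.39, adjusted p = 0.00107), and section 24 h B lay within the 0 h range. Gmnn, encoding geminin, an inhibitor that stops origins from being licensed again, measured 11.4, 11.4 and 9.38 CPM at 0 h, 8.41 and 8.74 at 24 h, 16.9 and 15.1 at 36 h, and 20.2, 23.9, 25.2 and 23.8 at 48 h. Both 24 h sections of Gmnn lay below the 0 h sections, a difference of -0.33 ± 0.13 that did not pass (adjusted p = 0.0665), before it rose at 36 h (0.57 ± 0.13, adjusted p = 0.00842) and at 48 h (2.17-fold).

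Among the 7 genes of polymerases, clamp and clamp loaders, 2 were higher at 24 h, 4 at 36 h and 7 at 48 h, where the median log2 fold change was 1.23. Pcna, the sliding clamp that tethers polymerases to DNA, measured 24.01, 22.6 and 20.2 CPM at 0 h, 24.6 and 26.1 at 24 h, 28.5 and 38.6 at 36 h, and 42.4, 55.3, 55.6 and 55.7 at 48 h. It was called at 36 h (0.59 ± 0.16, adjusted p = 0.0178) and reached 2.35-fold at 48 h, with the 36 h call lost without section 3 or 4 of 0 h, or without section B of 36 h (adjusted p from 0.0523 up to 0.175). Sections B, C and D at 48 h were nearly equal, and A lay well below them.

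Fen1, the flap endonuclease that trims Okazaki fragments, measured 3.79, 3.44 and 3.13 CPM at 0 h, 9.59 and 8.42 at 24 h, 7.10 and 6.76 at 36 h, and 9.32, 16.4, 15.7 and 15.1 at 48 h. Its course was not a steady climb, since it was 2.61-fold higher at 24 h (adjusted p = 6.51e-04), 2.003-fold at 36 h and 4.07-fold at 48 h, with both 36 h sections below both 24 h sections. The difference from 24 h to 36 h did not pass (-0.38 ± 0.23, adjusted p = 0.280).

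The other 5 spanned a wide range of change. Pold3, a subunit of polymerase delta, was called at all 3 time points with log2 fold changes of 0.71, 0.59 and 0.80, the 36 h call being lost without section 2 of 0 h, or without section A of 36 h (adjusted p from 0.0662 up to 0.118). Dscc1, part of an alternative clamp loader, was at -0.49 at 24 h without a call, and at 2.60 and 3.70 afterwards, from 4 to 8 UMIs per 0 h section. Prim1, the catalytic primase subunit, Pola1, the catalytic subunit of polymerase alpha, and Rfc2, a clamp loader subunit, were called at 48 h only, at 1.54, 1.20 and 0.46.

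The 3 genes of nucleotide supply were called late. At 24 h none was called, Rrm1 was called at 36 h, and by 48 h each of the 3 was. Rrm1, the large subunit of ribonucleotide reductase, measured 7.13, 7.45 and 7.09 CPM at 0 h, 8.49 and 6.51 at 24 h, 11.5 and 13.4 at 36 h, and 19.1, 27.3, 27.8 and 31.4 at 48 h. Rrm2, its small subunit, measured 3.85, 5.89 and 4.89 CPM at 0 h, 4.69 and 1.79 at 24 h, 7.79 and 9.96 at 36 h, and 12.4, 24.7, 23.6 and 24.8 at 48 h. For both, the 24 h sections overlapped the 0 h sections, and only Rrm1 was called at 36 h (0.78 ± 0.19, adjusted p = 0.0129), while Rrm2 was at 0.86 ± 0.38 (adjusted p = 0.114). That call of Rrm1 was lost without section B of 36 h (adjusted p = 0.0828).

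Tyms, the thymidylate synthase, measured 10.6, 8.87 and 9.43 CPM at 0 h, 9.36 and 7.08 at 24 h, 9.94 and 8.99 at 36 h, and 14.5, 18.4, 21.5 and 21.1 at 48 h. Its sections from 24 h and 36 h overlapped those from 0 h, with a log2 fold change at 36 h of -0.03 ± 0.18 (adjusted p = 0.934). All 48 h sections lay above every earlier section (1.96-fold over 0 h, adjusted p = 6.38e-04). At 48 h Rrm1 was 3.65-fold and Rrm2 4.37-fold higher than at 0 h.

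Fork stability and repair genes were the most mixed role. Of the 8, 1 was higher and 1 lower at 24 h, 5 were higher at 36 h and 7 at 48 h. Ung, the glycosylase that removes uracil from DNA, measured 2.99, 2.41 and 3.16 CPM at 0 h, 25.2 and 20.1 at 24 h, 12.5 and 7.79 at 36 h, and 8.46, 12.6, 8.21 and 14.8 at 48 h. It rose 7.96-fold at 24 h (log2 fold change 2.99 ± 0.29, adjusted p = 6.11e-05), fell by 1.16 on the log2 scale from 24 h to 36 h (adjusted p = 0.0326), and was still 3.87-fold above 0 h at 48 h. The fall was lost without any section of 0 h, or without either section of 24 h, or without section B of 36 h (adjusted p from 0.0520 up to 0.169).

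Blm, a RecQ helicase that resolves recombination intermediates, measured 3.21, 3.15 and 3.13 CPM at 0 h, 1.25 and 0.989 at 24 h, 3.07 and 2.74 at 36 h, and 3.42, 3.92, 4.22 and 3.99 at 48 h. It was the 1 S-phase gene called lower at 24 h (-1.49 ± 0.19, adjusted p = 1.89e-04), it rose again by 1.36 ± 0.20 from 24 h to 36 h (adjusted p = 0.00431), and at 48 h it was not called against 0 h (0.30 ± 0.14, adjusted p = 0.108) although the sections did not overlap.

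Clspn, the checkpoint adaptor claspin, measured 0.198, 0.0736 and 0.198 CPM at 0 h, 0.215 and 0.128 at 24 h, 1.62 and 1.37 at 36 h, and 1.998, 2.98, 3.70 and 3.58 at 48 h. Sections at 24 h overlapped those at 0 h, and the gene was 9.77-fold higher at 36 h (adjusted p = 6.87e-04) and 20.02-fold at 48 h, from 4 to 9 UMIs per 0 h section. Exo1, a 5′ exonuclease of mismatch repair and end resection, measured 0.110, 0.0736 and 0.0565 CPM at 0 h, 0.129 and 0.128 at 24 h, 0.348 and 1.11 at 36 h, and 1.16, 1.91, 1.89 and 2.15 at 48 h, from 2 to 5 UMIs per 0 h section. It was called at 36 h (3.13 ± 0.55, adjusted p = 0.00291) and had the second largest 48 h change (4.41 ± 0.48).

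Dtl, which marks the licensing factor Cdt1 for destruction, and Rad51ap1, which acts in homologous recombination, had the same order of events as Clspn: no call at 24 h, and log2 fold changes of 2.50 and 2.92 at 36 h and of 3.96 and 4.26 at 48 h. Tipin, a component of the fork protection complex, was called at 48 h only (1.19). Usp1, a deubiquitinase of PCNA, measured 13.6, 13.4 and 12.5 CPM at 0 h, 16.1 and 15.2 at 24 h, 12.5 and 14.4 at 36 h, and 15.1, 17.1, 15.9 and 16.8 at 48 h, and its small 48 h change (0.30 ± 0.09, adjusted p = 0.0174) was lost without section 4 of 0 h (adjusted p = 0.0764).

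Chromatin, histone and centromere genes held both the largest and the smallest change. Of the 11, 5 were higher at 24 h, 7 at 36 h and 10 at 48 h. Uhrf1, which carries DNA methylation over to the new strand, measured 0.330, 0.331 and 0.989 CPM at 0 h, 2.69 and 1.18 at 24 h, 8.17 and 7.45 at 36 h, and 10.7, 19.4, 17.8 and 17.2 at 48 h. It rose by 1.92 ± 0.49 at 24 h (adjusted p = 0.0103), 3.90 ± 0.46 at 36 h and 4.96 ± 0.43 at 48 h, 31.1-fold and the largest change of the 40. Its 24 h call was lost without section A of 24 h (adjusted p = 0.171). Ubr7, a ubiquitin ligase that acts on histone H2B, measured 7.40, 6.88 and 7.17 CPM at 0 h, 6.62 and 5.93 at 24 h, 5.91 and 8.76 at 36 h, and 7.80, 7.79, 8.71 and 7.58 at 48 h, and was not called at any time (48 h log2 fold change 0.16 ± 0.13, adjusted p = 0.359).

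Slbp, which binds the stem-loop of histone mRNAs and supports their processing and translation, measured 16.00, 16.99 and 16.8 CPM at 0 h, 15.9 and 15.9 at 24 h, 14.9 and 14.9 at 36 h, and 20.02, 25.6, 21.8 and 23.8 at 48 h. Its 24 h and 36 h sections lay below all 0 h sections, with differences of -0.06 ± 0.11 and -0.16 ± 0.11 that did not pass, and the gene rose at 48 h (0.46 ± 0.09, adjusted p = 0.00280). Casp8ap2, another factor of histone mRNA production, was also called at 48 h only (0.65), as was Wdr76 (0.78). The call of Casp8ap2 was lost without section 4 of 0 h (adjusted p = 0.0512), and that of Wdr76 was lost without section 2 of 0 h (adjusted p = 0.0629).

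Chaf1b, a subunit of the histone chaperone CAF-1, measured 0.726, 1.38 and 0.791 CPM at 0 h, 1.38 and 2.55 at 24 h, 3.59 and 6.25 at 36 h, and 4.88, 6.08, 8.29 and 7.17 at 48 h. It was 5.02-fold higher at 36 h (adjusted p = 0.00193) and 6.73-fold at 48 h, and the 36 h and 48 h sections overlapped. Cdca7 and Hells, which act together in remodelling of methylated chromatin, reached log2 fold changes of 1.85 and 3.57 at 48 h. Atad2, Cenpu and Nasp, respectively a bromodomain ATPase, a centromere protein and a histone chaperone, were called from 24 h on and reached 2.62, 3.96 and 0.79. Of these 24 h calls, that of Cenpu was lost without section A of 24 h (adjusted p = 0.108) and that of Nasp was lost without section 2 of 0 h, or without section B of 24 h (adjusted p from 0.0650 up to 0.0875). The 36 h call of Nasp was lost without section B of 36 h (adjusted p = 0.0786).

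E2f8, an atypical E2F that represses E2F target genes, measured 2.58, 1.66 and 3.76 CPM at 0 h, 3.83 and 1.5 at 24 h, 1.56 and 1.40 at 36 h, and 3.36, 4.35, 4.45 and 10.5 at 48 h. Section 48 h D stood far above the other 48 h sections, of which A lay within the 0 h range, and the change at 48 h was not called (1.10 ± 0.46, adjusted p = 0.0732). E2f8, Ubr7 and Blm were the 3 genes not called higher than at 0 h at any time.

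**Figure D2:**
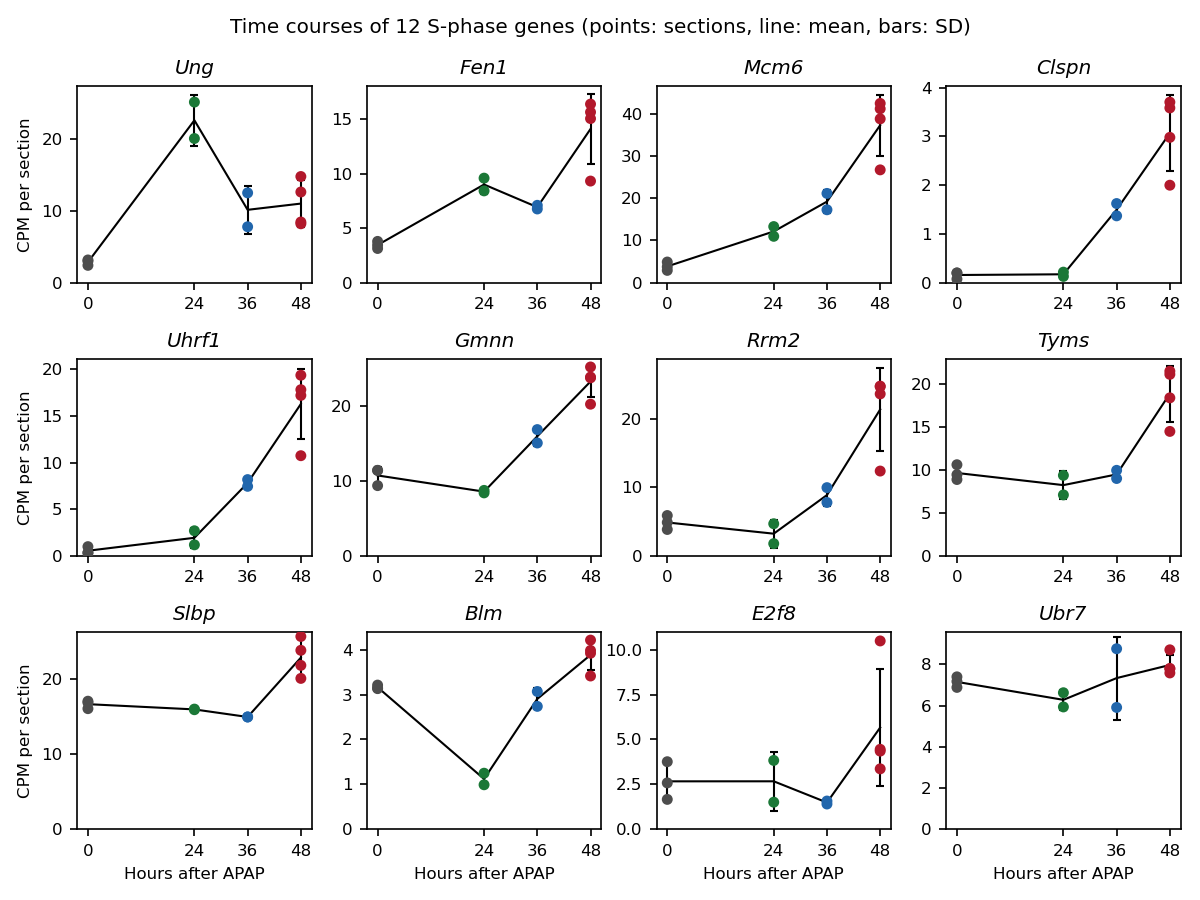
CPM of 12 S-phase genes against hours after APAP, with 1 point per section, a line through the group means and bars of 1 SD. Ung peaked at 24 h, Clspn at 24 h overlapped its 0 h sections, Tyms and Slbp were first higher at 48 h, and E2f8 at 48 h rested on section D.

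Between neighbouring time points the picture was less firm. From 24 h to 36 h, 15 of the 40 genes rose and 1 (Ung) fell, where 7.04% of all genes rose and 8.58% fell. The rises included Dscc1 (3.09), Clspn (3.06), Rad51ap1 (2.76), Blm (1.36) and Gmnn (0.90), and these 5 were the ones called in every fit that left out 1 section. Sections 24 h A and B held few UMIs of some of these, 5 and 2 of Dscc1, 10 and 4 of Clspn and 18 and 5 of Rad51ap1. Without section 24 h B 5 of the 16 calls were made, without 36 h B 7 and without 24 h A 8. No gene was called when only these 2 groups were fitted, and 1 was when only the A and B sections of the injured groups were.

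From 36 h to 48 h, 13 genes rose and none fell, where 1.62% of all genes rose, and all 40 log2 fold changes were above 0 (median 0.91). Among them were Mcm4 (1.26 ± 0.22, adjusted p = 0.0216), Tyms (0.99 ± 0.18, adjusted p = 0.0224) and Slbp (0.61 ± 0.11, adjusted p = 0.0220). None of the 13 was called in every fit with 1 section left out: there were no calls without 36 h A, 48 h B or 48 h C, 6 without 48 h D, 7 without any 1 of the 0 h sections and 22 without 48 h A. At an unadjusted p under 0.05, 35 of the 40 passed, but no share of all genes at that limit was set beside this count.

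The 24 h calls also leaned on single sections. Of the 15 calls at 24 h, Atad2, Blm, Fen1, Gins2, Mcm2, Mcm6, Pold3 and Ung were made in every fit with a section left out. At 36 h 22 of the 27 calls were made in each such fit, and at 48 h 34 of the 37, the others being Casp8ap2, Usp1 and Wdr76. Scaling by total counts instead of TMM moved the median of all genes up by 0.33, 0.44 and 0.53 at 24, 36 and 48 h, and the share of higher calls among all calls from 55.4% to 80.4%, from 57.5% to 94.1% and from 52.7% to 93.7%, with S-phase medians of 0.82, 1.59 and 2.52.

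Onset was compared as the share of each gene's 48 h log2 change that was already present at 36 h. For the 37 genes called at 48 h the median share was 64.3% at 36 h and 21.6% at 24 h, and 27 genes had passed 50% by 36 h while 10 had not. On the linear CPM scale the median share at 36 h was 41.7%. With ranges over fits that left out each section, the highest shares were those of Ung (93.96%, 74.3% to 110%), Chaf1b (84.6%, 68.1% to 97.02%) and Uhrf1 (78.7%, 76.2% to 80.98%). The lowest were those of Slbp (-34.3%, -45.0% to -30.5%), Tyms (-2.58%, -10.6% to 4.62%) and Usp1 (11.6%, -24.4% to 43.3%), and Casp8ap2, at 26.8%, ranged from -15.1% to 61.2%. The order of Usp1 and Casp8ap2 was therefore not settled. Ung had its highest mean at 24 h, so its 36 h share followed a peak and does not describe a steady rise.

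Within the helicase ring, Mcm5 had made 74.5% of its change by 36 h (68.5% to 79.8% with each section left out), Mcm6 70.8% (66.3% to 75.01%), Mcm4 52.2% (46.3% to 57.5%) and Mcm7 41.3% (38.4% to 44.5%). The ranges of Mcm5 and Mcm7 did not overlap. Rrm1 and Rrm2 had similar shares, at 41.9% (35.7% to 47.6%) and 40.5% (31.7% to 48.1%), and Pcna, at 48.2%, had a wide range (29.2% to 64.4%). These shares are descriptions, and no test between genes was made.

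A test of onset within each gene set the 36 h level against the midpoint of 0 h and 48 h on the log2 scale. The difference from the midpoint was above 0 for 27 of the 40 genes. Only Uhrf1 was called above it (1.42 ± 0.35, adjusted p = 0.0398) and only Slbp below it (-0.38 ± 0.10, adjusted p = 0.0480), where 4.05% of all genes were called above and 2.38% below. The other 38 did not pass, and DESeq2 called 9. At an unadjusted p under 0.05, 15 of the 40 passed, again without a share of all genes beside the count. The call of Uhrf1 was lost without section 2 or 3 of 0 h, or without either section of 36 h, or without section B, C or D of 48 h (adjusted p from 0.0543 up to 0.103), and that of Slbp was lost without any section of 0 h, or without either section of 24 h, or without either section of 36 h, or without section B, C or D of 48 h (adjusted p from 0.0540 up to 0.138).

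**Figure D3:**
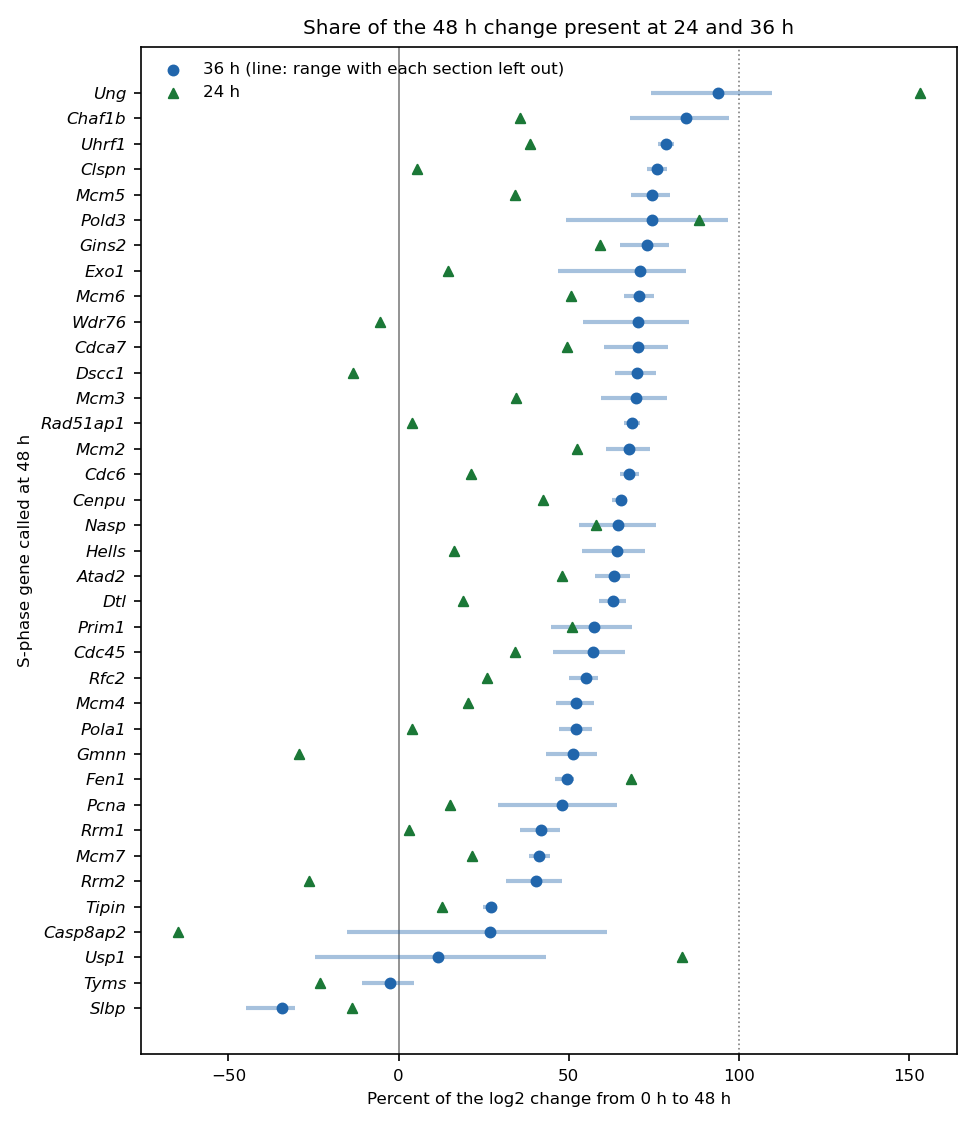
Percent of the log2 change from 0 h to 48 h present at 24 h (triangles) and at 36 h (circles) for the 37 S-phase genes called at 48 h, with lines for the range of the 36 h value when each section was left out. Ung and Chaf1b stood at the top and Tyms and Slbp at the bottom, near or below 0% at 36 h.

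Other genes of the pathway were counted in the same way. Of 49 further replication genes, 17 were higher at 24 h (7 lower), 30 at 36 h (1 lower) and 40 at 48 h (1 lower), with a median log2 fold change of 1.49 at 48 h. Among all genes tested, 23.1%, 16.8% and 23.3% were higher at these times, and 18.6% were lower at 24 h. Ccne1, cyclin E1, which drives entry into S phase, was at 2.41 (adjusted p = 1.14e-04) at 24 h and at 2.78 (adjusted p = 2.37e-04) at 36 h. Ticrr, needed for origin firing, was at 3.54 (adjusted p = 0.00855) at 36 h, against only 0, 2 and 2 UMIs in the 0 h sections.

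Genes of G2 and mitosis (54) had few calls at 24 h. Of these, 7 were higher at 24 h (3 lower), where 23.1% of all genes were higher and 18.6% lower. At 36 h 28 were higher (1 lower) and at 48 h 49 (none lower), where 16.8% and 23.3% of all genes were higher. The median log2 fold changes of the 54 were 0.36, 1.49 and 3.69. From 36 h to 48 h, where 1.62% of all genes rose, 35 of the 54 did. Their median share of the 48 h change at 36 h was 45.8% over 49 genes, beside 64.3% for the S-phase genes and 67.2% for the 40 called further replication genes. Hmmr, Ckap2l and Bub1, which act on the spindle, were at 3.45 (adjusted p = 0.0275), 3.34 (adjusted p = 0.00196) and 3.26 (adjusted p = 0.00476) at 36 h, the call of Hmmr being lost without section 2 or 3 of 0 h, or without either section of 36 h (adjusted p from 0.0713 up to 0.0999), and at 6.83, 5.11 and 5.51 at 48 h. The 0 h sections held only 1, 1 and 4 UMIs of Hmmr and 1, 7 and 1 of Bub1, so the sizes of these changes rest on few counts.

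The promoter letters were set beside the courses. The 14 S-phase genes with an E2F-type octamer had median log2 fold changes of 0.73, 2.01 and 2.87 at 24, 36 and 48 h, and the 17 without one of 0.19, 0.86 and 1.87. At 48 h 13 of the 14 and 15 of the 17 were called, and Ubr7, never called, had an octamer while Pcna and Mcm2 had none in this window. TTTGAA, the core of the CHR element of mitotic promoters, was present on either strand in 6 of the 31 S-phase promoters (19.4%), 33 of 47 for G2 and mitosis genes (70.2%) and 20.2% of all promoters. CCAAT was present in 71.0%, 76.6% and 41.1%.

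Some marker lists of other liver cells were higher in every 48 h section than in every 0 h section, and others were not. The 4 myofibroblast markers summed to 37.5 to 45.9 CPM at 0 h and to 484 to 1185 CPM at 48 h, and the 4 mononuclear phagocyte markers to 409 to 435 CPM at 0 h and 722 to 1327 CPM at 48 h. Lyz2 was the largest part of the phagocyte sum, with 7286 to 10178 unscaled UMIs per section at 0 h and 25623 to 62078 at 48 h. Cd68 (651 to 1004 and 3926 to 10930) and Cd5l (4893 to 7396 and 9877 to 22421) were also apart. Csf1r overlapped, at 2554 to 3877 and 2790 to 6785. Neutrophil markers (5) summed to 3.17 to 9.06 CPM at 0 h and 35.5 to 113 CPM at 48 h, with 142 CPM in section 24 h B, and cholangiocyte markers (4) to 235 to 293 CPM and 325 to 1031 CPM. Krt8 made up most of the cholangiocyte sum, with 8466 to 10851 UMIs per section at 0 h and 20083 to 69025 at 48 h. The other members of that list overlapped in unscaled UMIs. Cdh1 had 1531 to 1828 at 0 h and 1627 to 2249 at 48 h, Epcam 51 to 96 and 44 to 115, and Krt19 49 to 80 and 51 to 201. Endothelial markers (7) overlapped, at 247 to 283 CPM and 207 to 264 CPM, as did T and B cell markers (6), at 4.80 to 6.83 CPM and 3.61 to 7.30 CPM. Every marker of these lists was detected in every section. Their part in the S-phase change was not tested.

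Across spots, the S-phase genes became more frequent and then clustered. After each spot was thinned to 5000 UMIs, the percentage of spots with at least 1 S-phase UMI was 51.9, 54.6 and 55.7 at 0 h, 75.2 and 71.9 at 24 h, 79.6 and 79.7 at 36 h, and 85.1, 92.01, 92.3 and 93.9 at 48 h. A thinned spot held on average this many S-phase UMIs: 0.736, 0.798 and 0.816 at 0 h, 1.44 and 1.28 at 24 h, 1.78 and 1.88 at 36 h, and 2.43, 3.44, 3.47 and 3.71 at 48 h. Without thinning, 86.1% to 93.3% of spots at 0 h and at least 98.4% at 48 h held one. A UMI of these genes in a spot was thus common in uninjured liver too.

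Among single genes, Pcna had a UMI in 8.96%, 8.52% and 7.35% at 0 h, 10.5% and 12.9% at 24 h, 13.8% and 17.6% at 36 h, and 19.9%, 26.1%, 25.7% and 26.4% at 48 h of the thinned spots. Mcm6 had one in 0.725%, 1.05% and 2.13% at 0 h, 6.20% and 5.14% at 24 h, 8.23% and 10.1% at 36 h, and 13.5%, 20.6%, 19.5% and 20.9% at 48 h. Ung had one in 1.66%, 1.05% and 1.16% at 0 h, 12.7% and 9.22% at 24 h, 6.88% and 3.6% at 36 h, and 4.49%, 7.05%, 4.08% and 8.32% at 48 h. In these 3 genes, 48 h was the highest time for Pcna and Mcm6 and 24 h for Ung, with no overlap between that time and any other.

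The variance of the thinned S-phase count over its mean was 1.02, 1.02 and 0.990 at 0 h, 1.06 and 1.06 at 24 h, 1.34 and 1.48 at 36 h, and 1.93, 1.97, 2.03 and 2.02 at 48 h, where independent counts give a ratio near 1. Moran's I, the correlation of a spot with its up to 6 neighbours, was 0.0127, 0.0188 and -0.00745 at 0 h, 0.0378 and 0.0346 at 24 h, 0.0496 and 0.148 at 36 h, and 0.202, 0.246, 0.240 and 0.249 at 48 h. Sections from 48 h lay above all others on both measures, and section 36 h B exceeded 36 h A. For a given relative pattern over spots, both measures also grow with the mean count, and that mean rose with time. Values near those of independent counts at 0 h therefore do not show that no pattern was present. Thinning to 2000 UMIs gave Moran's I of -0.00962 to 0.00539 at 0 h and 0.109 to 0.146 at 48 h. At 2000 UMIs a 48 h spot held 0.999 to 1.48 S-phase UMIs on average. The 24 h spots held 1.28 to 1.44 at 5000 UMIs, where Moran's I was 0.0346 to 0.0378.

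**Figure D4:**
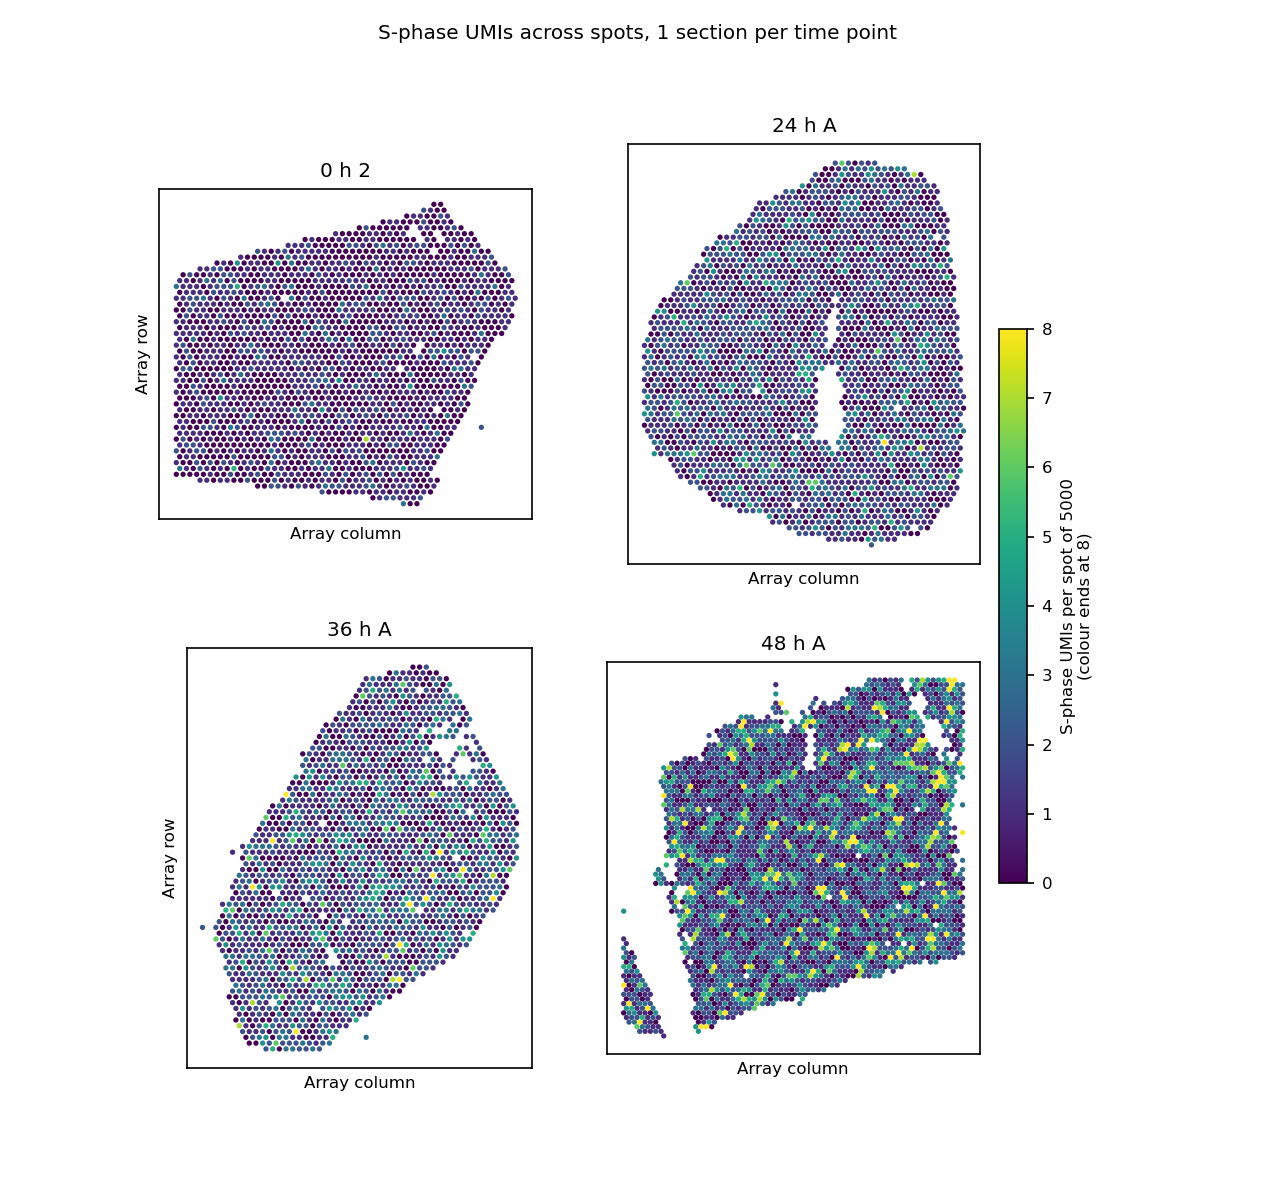
S-phase UMIs per spot after thinning to 5000 UMIs, in the first section of each time point, at array row and column, with the colour ending at 8. Spots with many UMIs were scattered and rare at 0 h and 24 h and formed patches at 48 h.

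Over the spots of a 48 h section (1489 to 3343 thinned spots), the S-phase count correlated with other lists taken from the same thinned spot. G2 and mitosis genes entered as a summed count. Marker lists entered as a score, the mean over the list of the natural log of 1 plus UMIs per 10000. Pearson's r was 0.424 to 0.563 with G2 and mitosis genes, 0.515 to 0.571 with myofibroblast markers, 0.488 to 0.551 with mononuclear phagocyte markers and -0.583 to -0.493 with portal hepatocyte markers. At 0 h these correlations lay between -0.0263 and 0.0256. Spots at 0 h held fewer S-phase UMIs, and counting error lowers r at low counts. Points share their section, total and neighbourhood, and the values are descriptions.

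Spots were classed without use of the S-phase genes. Hepatocyte-low spots had a hepatocyte-marker score under the 1st percentile of the uninjured sections, edge spots touched such a spot, and far spots lay at least 3 steps from one. Hepatocyte-low spots numbered 163, 40, 240 and 93 in sections A, B, C and D at 48 h, and their mean S-phase count of 5.69, 7.20, 7.25 and 7.37 exceeded that of edge spots (3.29, 5.04, 4.14 and 5.49) and of far spots (1.99, 3.10, 2.48 and 3.06). The order held in each of the 4 sections. It held at 24 h too, at 1.97, 1.73 and 1.36 in A and 1.96, 1.66 and 1.23 in B. Section 36 h A had 4.07, 2.25 and 1.71, and 36 h B had 8 hepatocyte-low spots, too few for a mean. No 0 h section kept the full order. Section 4 was at 0.762, 0.896 and 0.801, and section 3 at 1.0, 0.788 and 0.788. Section 2 had 11 hepatocyte-low spots, too few for a mean, and its edge spots (0.587) lay below its far spots (0.7445). At a fixed total of 5000 UMIs, a low hepatocyte share leaves more UMIs for other genes, and no mean over all genes was set beside these.

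Edge spots (48 to 772 a section) and far spots (748 to 1990) were compared on class sums with the section as a block. The block takes out each section's own level, so test values of the class comparisons measure how a class difference varied between sections. At 24 h, 1 of the 40 genes was higher in edge spots, where 3.07% of all genes were, and at 36 h 3 were, where 2.47% of all genes were. At 48 h 34 were higher and none lower, where 21.3% of all genes were higher, with a median log2 difference of 0.58 against 0.01 for all genes. The 6 not called at 48 h were Blm, Casp8ap2, Exo1, Ubr7, Ung and Wdr76.

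Pcna in edge against far spots of the 48 h sections measured 58.5 against 40.02, 84.5 against 60.03, 74.1 against 45.8 and 87.02 against 53.7 CPM, higher at the edge in 4 of 4 sections (log2 difference 0.61 ± 0.05, adjusted p = 3.16e-21). Rrm2 had a difference of 0.71 ± 0.06, Mcm2 of 0.70 ± 0.07, Mcm5 of 0.69 ± 0.06 and Mcm6 of 0.65 ± 0.05. Mcm6 was also called at both earlier times, at 0.52 ± 0.17 at 24 h (adjusted p = 0.0355) and 0.59 ± 0.17 at 36 h (adjusted p = 0.0146).

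The other edge calls at 36 h were Chaf1b (0.99 ± 0.32, adjusted p = 0.0312) and Clspn (1.496 ± 0.50, adjusted p = 0.0387). No call was made at 24 h without section 24 h B, or at 36 h without either section, while at 48 h 33 or 34 were made with each section left out. Edge spots at 48 h also carried 0.693 to 0.714 times the hepatocyte-marker CPM of far spots, 1.59 to 2.08 times the phagocyte-marker CPM and 1.68 to 2.03 times the myofibroblast-marker CPM, and the part of these cells in the difference was not tested.

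The second classing ranked spots that were not hepatocyte-low by the score of 12 portal hepatocyte genes, and compared the highest with the lowest-ranked tercile of each section. None of the 40 S-phase genes differed at 0 h, where 13.2% of all genes did. At an unadjusted p under 0.05, 5 passed, without a share of all genes at that limit beside the count. In portal-high spots, 1 gene was higher and 10 lower at 24 h, where 17.8% of all genes were higher and 15.8% lower. At 36 h 18 were lower (15.6% of all genes), and at 48 h 38 were lower (33.1% of all genes), all but Blm and Ung. The median log2 difference went from 0.03 at 0 h to -0.15, -0.59 and -1.05 at 24, 36 and 48 h, beside -0.03 for all genes at 48 h.

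By role, licensing and helicase genes made up 6 of the 10 lower calls at 24 h and 8 of the 18 at 36 h, with median differences of -0.55, -0.87 and -1.15 at 24, 36 and 48 h. Nucleotide supply genes had medians of 0.25, -0.11 and -0.97, with 0, 1 and 3 of the 3 lower. Polymerase and clamp genes had medians of -0.15, -0.39 and -0.86, with 1, 2 and 7 of the 7 lower, and chromatin genes of -0.09, -0.47 and -0.84, with 2, 3 and 11 of the 11 lower.

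Pcna in portal-high against portal-low spots measured 24.7 against 21.6, 23.4 against 20.1 and 20.6 against 19.4 CPM at 0 h and 26.8 against 54.5, 34.7 against 75.3, 33.9 against 71.9 and 38.2 against 73.6 CPM at 48 h. The high spots were above the low spots in each 0 h section and below them in each 48 h section (48 h difference -1.04 ± 0.06, adjusted p = 3.46e-15). Uhrf1 had the largest 48 h difference of the 5 genes with the smallest p (-1.46 ± 0.08), beside Mcm5 (-1.26 ± 0.07), Mcm6 (-1.14 ± 0.07) and Rrm1 (-0.97 ± 0.06).

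At 24 h the 5 genes with the smallest p among the lower ones included helicase subunits: Mcm2 (-0.98 ± 0.17, adjusted p = 5.72e-05), Mcm4 (-0.77 ± 0.19), Mcm5 (-0.75 ± 0.18) and Mcm6 (-0.63 ± 0.13) were lower in portal-high spots, together with Pcna (-0.39 ± 0.10). Ung was the 1 gene higher there (0.39 ± 0.12, adjusted p = 0.0108), at 28.8 against 21.1 and 23.3 against 18.9 CPM in sections A and B. At 36 h Ung was lower in portal-high spots (-0.63 ± 0.16, adjusted p = 0.00256), as were Mcm6 (-0.96 ± 0.12), Uhrf1 (-1.16 ± 0.16), Mcm5 (-0.91 ± 0.14), Pcna (-0.71 ± 0.09) and Mcm3 (-0.83 ± 0.14). The 24 h call of Ung was lost without section A of 24 h (adjusted p = 0.259) and its 36 h call was lost without section A of 36 h (adjusted p = 0.505), where the difference was -0.24, and the change between these times was not tested. At 24 h 5 of 11 calls were made without section 24 h A and 3 without 24 h B, Mcm2 alone being called in both, and at 36 h 9 of 18 were made without 36 h B.

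The change of this difference over time was tested in the same fit, a contrast chosen after the data were seen. The portal-high difference was lower at 48 h than at 0 h for 28 of the 40 genes, where 19.6% of all genes had this, including Pcna (-1.21 ± 0.10, adjusted p = 5.07e-11), Rrm1 (-1.04 ± 0.12), Slbp (-0.85 ± 0.11), Rrm2 (-1.63 ± 0.20) and Fen1 (-1.37 ± 0.19). It was lower at 48 h than at 36 h for 5, where 1.46% of all genes had this: Rrm2 (-1.22 ± 0.21, adjusted p = 0.00203), Rrm1 (-0.61 ± 0.14), Nasp (-0.50 ± 0.12), Tyms (-0.58 ± 0.16) and Gmnn (-0.49 ± 0.14). All 3 nucleotide supply genes were among them.

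Rrm2 in portal-high against portal-low spots measured 8.51 against 6.39 and 8.48 against 11.7 CPM at 36 h and 6.54 against 16.2, 14.4 against 36.03, 13.2 against 32.4 and 14.8 against 35.6 CPM at 48 h. At 36 h the sections went opposite ways, and at 48 h the high spots were the lower ones in 4 of 4. The class is named for its score only, because what it held shifted with injury: portal-high spots had 0.540 to 0.571 times the central-hepatocyte CPM of portal-low spots at 0 h but 1.22 to 1.48 times at 48 h.

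Over the same spots the hepatocyte-marker ratio was 1.29 to 1.32 at 0 h and 1.52 to 1.78 at 48 h, the phagocyte-marker ratio 1.14 to 1.23 and 0.283 to 0.395, and the myofibroblast-marker ratio 0.808 to 0.954 and 0.206 to 0.315. Their part in the S-phase difference was not tested. Among spots at least 3 steps from a hepatocyte-low spot, 37 of the 40 genes were called at 48 h, with a median of -0.95. No share or median over all genes in that fit was set beside these. The summed S-phase ratio was 0.987 to 1.03 at 0 h, 0.901 to 0.962 at 24 h, 0.652 to 0.756 at 36 h and 0.528 to 0.566 at 48 h, with no overlap between time points.

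**Figure D5:**
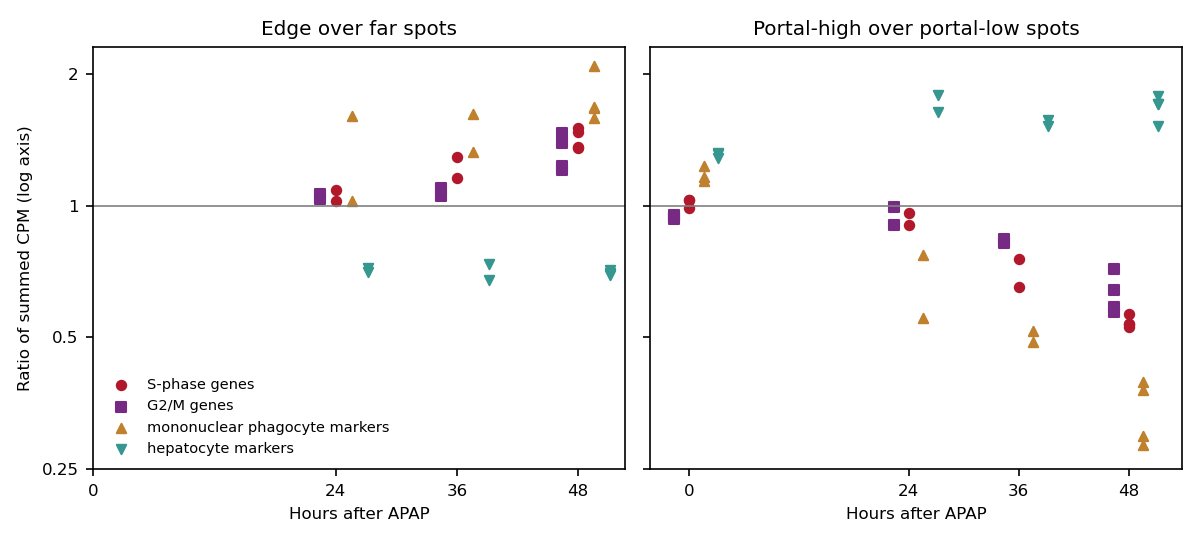
Ratio of summed CPM between spot classes in each section, on a log axis, against hours after APAP, with points of the lists set apart sideways (left, edge over far spots; right, portal-high over portal-low spots). The S-phase ratio was 1.35 to 1.501 at the edge and 0.53 to 0.57 in portal-high spots at 48 h, and the phagocyte-marker ratio moved in the same direction.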

How the data were processed

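The authors deposited, per section, the matrix of UMI counts for 31053 genes and 4992 spots, raw and not normalized. The submitters' processing notes name Space Ranger 1.0.0, Seurat 4.1.1 and the mm10 build. Space Ranger counts reads on the strand of the gene, and 7 of the 40 genes overlap a coding gene on the other strand. A deeper section gives its low genes less counting error, and the totals are given at the head of the results.

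Spots with under 800 genes or over 20% mitochondrial UMIs were removed, and counts were summed per section. A single fit over all 11 sections (edgeR 4.0.16 in R 4.3.3, TMM, filterByExpr, robust quasi-likelihood F-test, Benjamini-Hochberg adjustment over 14821 genes, threshold 0.05) gave every time comparison. Class sums were fitted in the same way with the section as a block, over 14033 genes for edge and far spots and 13881 for portal-high and portal-low spots. Scores and spot counts used spots thinned to 5000 UMIs. Python 3.11.15, numpy 2.4.6, pandas 2.3.3, scipy 1.17.1, limma 3.58.1 and DESeq2 1.42.0 were used.

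The S-phase genes, the other lists and the tests were chosen with earlier results of these data known. Genes given in full were Mcm2 to Mcm7, Pcna, Tyms, Rrm1, Rrm2, Fen1, Cdc6, Cdc45, Gins2, Clspn, Uhrf1, Gmnn, Slbp and E2f8. Added to these were the 3 genes with the largest and the 3 with the smallest 48 h change, the 3 highest and 3 lowest shares at 36 h, up to 5 genes by p in each spatial comparison, and the 3 largest 36 h changes of each further list, of which 1 gene is not reported here. Other genes were named for their role after their values were seen.

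The fit was tested on simulated counts with 200 changed genes: at 48 h against 0 h (14535 genes) 81% of log2 changes of size 1 and 100% of size 2 were recovered. At 36 h (14572 genes) 55% and 100% were recovered, and at 24 h (14590 genes) 56% and 99%. False calls numbered 3 at 48 h, 15 at 36 h and 11 at 24 h. The changed genes were drawn from well counted genes with the same spread for all, so these rates do not cover genes with few UMIs. Alternatives were total-count scaling, no filter on low counts, every spot under tissue, only the groups compared, a replicate block, DESeq2, other class limits, thinning to 2000 UMIs and leaving out each section. Letters A and B did not pair sections across groups.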

Additional observations from a re-analysis of the deposited data

Results flagged for a closer look

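Among 45 values of the 48 h sections (the 40 genes and 5 measures over spots), 3 held a section far from the others, where chance gives about 1 in 20. Pcna in section 48 h A was at 42.4 CPM and Rrm2 in the same section at 12.4 CPM, both far below the other 48 h sections, and E2f8 in section 48 h D was at 10.5 CPM, far above them. No cause was tested.

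The portal-high against portal-low difference changed with time, by a test of the change itself, a contrast chosen after the data were seen. It was lower at 48 h than at 0 h for 28 of the 40 genes, where 19.6% of all genes had this. The smallest p were those of Pcna (log2 change of the difference -1.21), Rrm1 (-1.04) and Slbp (-0.85). It was lower at 48 h than at 36 h for 5 genes, where 1.46% of all genes had this. The smallest p there were those of Rrm2 (-1.22), Rrm1 (-0.61) and Nasp (-0.50).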

How the results depend on the processing

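Counts of called S-phase genes at 36 h and 48 h against 0 h, and of edge and portal-high differences at 48 h, stayed within 1.5 times under every alternative run. Total-count scaling gave 24 calls at 24 h (15 with TMM) and 9 at the midpoint (2 with TMM), DESeq2 gave 9 at the midpoint and 24 from 36 h to 48 h (13), and no filter on low counts gave 0 at the midpoint. With only the groups compared, no gene was called from 24 h to 36 h or from 36 h to 48 h. Sections A and B of the injured groups without a block, an alternative added after the data were seen, gave 1 and 0. With hepatocyte-low set at the 5th percentile, or thinning to 2000 UMIs, no edge call was made at 24 h, and thinning to 2000 UMIs gave 5 portal-high calls at 24 h (11) and turned the median edge difference at 24 h to -0.0323 (0.16). With far spots only, also added later, 1 gene was called at 0 h. The cause of these shifts was not tested.

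With each section left out, calls ranged from 11 to 17 at 24 h, 23 to 29 at 36 h, 35 to 38 at 48 h, 5 to 18 from 24 h to 36 h, 0 to 22 from 36 h to 48 h and 0 to 3 at the midpoint. Edge calls ranged from 0 to 1 at 24 h, were 0 at 36 h and ranged from 33 to 34 at 48 h. Portal-high calls ranged from 0 to 1, 4 to 5, 9 to 15 and 37 to 38 at 0, 24, 36 and 48 h.

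The letters A and B were tested as a replicate block over the injured groups: with the replicate block 0 genes were called from 24 h to 36 h and 0 from 36 h to 48 h, where the same sections without it gave 1 and 0. Same-letter deviations correlated between -0.24 and 0.29, so the letters were taken as names and not as a pairing.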
